A study of Mus musculus with 48 samples.

Results

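The receptors through which leptin, insulin, melanocortins, ghrelin, neuropeptide Y, amylin and GDF15 act on feeding circuits were described in brain RNA from drug-treated mice. The set is 10 genes, Lepr, Insr, Mc4r, Mc3r, Ghsr, Npy1r, Npy2r, Npy5r, Calcr and Gfral. They were taken by symbol from the 38293 Ensembl genes of the deposited count table, and each symbol matched 1 row.

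RNA was sequenced in 48 libraries from male C57/Bl6 mice aged 9 weeks that were fasted for 6 h and injected intraperitoneally with 10 µL per g. The regions were the dorsal vagal complex (DVC), the hindbrain site where gut signals arrive, and the mediobasal hypothalamus (MBH). From each clarified homogenate a small part gave total RNA (input), and the rest gave the RNA on ribosomes pulled down with an antibody to ribosomal protein S6 phosphorylated at residues 240/244 (IP). As background, neuronal activity raises this phosphorylation. Mice received saline, AC3174 (1 µg/kg), AC170222 (dose 2.5 µg/kg) or drugs combined, and 3 libraries were made for every pairing of treatment, region and RNA kind (16 groups). The series title names a GLP-1 and CCK combination. The treatment field spells AC170222 as AC710222. Because the protocol mentions further doses and agents (AC710222 in amounts of 2.5 or 10 µg/kg, and 1 µg/kg of exenatide), which dose a library received is uncertain. The sources used here do not give combination doses, the interval before dissection or how many mice made up a sample. All groups share strain, sex, age and fast, and the saline mice are the only controls. Nothing states that the libraries of a group came from separate mice, so p-values measure the spread between libraries, which may be technical.

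As background, the leptin receptor Lepr signals through JAK2 and STAT3, and the insulin receptor Insr is a tyrosine kinase that acts through IRS proteins and PI3 kinase. The melanocortin receptors Mc4r and Mc3r couple to Gs and cAMP, are activated by peptides cut from POMC and are blocked by AgRP. Ghsr is the ghrelin receptor. Npy1r, Npy2r and Npy5r couple to Gi, Npy1r and Npy5r being the receptors tied to NPY-driven feeding and Npy2r being largely a presynaptic receptor that also binds PYY. Calcr, the calcitonin receptor, becomes an amylin receptor when it pairs with a RAMP protein, and Gfral, the GDF15 receptor of the hindbrain, signals through the kinase Ret.

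Total counts ran from 29492622 to 95079227 in the DVC inputs, from 102116189 to 191252522 in the DVC IPs, from 36542586 to 80084056 in the MBH inputs and from 21782798 to 73940674 in the MBH IPs. The 24 inputs held counts for 12853 to 18657 genes, and 6 IP libraries held counts for fewer than 12000 genes (1 from DVC and 5 from MBH, the lowest with 6285). Region markers went with the labels: 6 of 6 DVC marker genes were higher in the DVC inputs and 6 of 6 MBH marker genes were lower there. Summed myelin markers were 4112 to 6411 CPM (counts scaled to library size by TMM) in the DVC inputs and 853 to 1851 in the MBH inputs, and summed markers of neurons were 6683 to 7922 and 3163 to 4940 CPM. In bulk tissue of this kind, fewer cells of a type and less RNA per cell cannot be told apart.

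The promoters of the pair of receptors with opposite regional patterns, Gfral and Mc3r, and of the neighbouring genes Npy1r and Npy5r are shown first, since the region comparison turns on the former pair and the latter pair is transcribed away from a shared stretch of chromosome 8. The sequences are RefSeq's on GRCm38.p6, 250 bases before to 50 after the start, 5′ to 3′ on the gene's strand: Gfral at chr9:76213608-76213907 (minus), Mc3r at chr2:172248242-172248541 (plus), Npy1r at chr8:66697172-66697471 (plus) and Npy5r at chr8:66688045-66688344 (minus). Capitals mark matches to a motif.
Gfral: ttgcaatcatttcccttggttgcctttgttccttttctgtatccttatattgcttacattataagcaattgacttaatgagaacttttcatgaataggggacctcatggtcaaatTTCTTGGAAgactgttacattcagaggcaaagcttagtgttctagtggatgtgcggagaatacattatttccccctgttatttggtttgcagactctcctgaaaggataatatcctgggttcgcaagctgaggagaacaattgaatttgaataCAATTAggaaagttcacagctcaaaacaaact
Mc3r: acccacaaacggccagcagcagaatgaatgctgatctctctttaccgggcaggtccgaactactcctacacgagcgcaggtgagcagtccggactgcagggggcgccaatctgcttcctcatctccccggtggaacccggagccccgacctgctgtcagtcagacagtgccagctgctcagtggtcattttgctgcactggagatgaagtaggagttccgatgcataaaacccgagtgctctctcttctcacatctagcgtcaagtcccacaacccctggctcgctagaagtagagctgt
Npy1r: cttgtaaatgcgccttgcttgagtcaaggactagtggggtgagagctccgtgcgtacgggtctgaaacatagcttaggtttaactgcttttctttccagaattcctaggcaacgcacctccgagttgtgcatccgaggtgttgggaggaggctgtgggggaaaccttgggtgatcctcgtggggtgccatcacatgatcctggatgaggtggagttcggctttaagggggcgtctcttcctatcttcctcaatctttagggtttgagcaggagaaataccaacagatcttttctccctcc
Npy5r: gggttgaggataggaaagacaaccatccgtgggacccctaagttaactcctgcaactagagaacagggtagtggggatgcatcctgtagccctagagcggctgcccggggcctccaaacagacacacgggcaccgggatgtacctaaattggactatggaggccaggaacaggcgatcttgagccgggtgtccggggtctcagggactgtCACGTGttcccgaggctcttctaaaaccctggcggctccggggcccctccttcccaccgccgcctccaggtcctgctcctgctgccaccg
The starts of Npy1r and Npy5r are 9328 bases apart. RefSeq promoters were read for 8 of the 10 receptors, Mc4r having been left out beforehand and Insr having no entry used here. The 5 motifs searched, on both strands, were the TATA box TATAAA, found in 13.6% of all 32851 promoters of this length, the cAMP response element TGACGTCA (1.79%), the E-box CACGTG (7.15%), the STAT-type site TTCNNNGAA (8.30%) and the homeodomain core TAATTG (8.00%). Gfral held a STAT-type match and a homeodomain match (on the opposite strand), which do not overlap, Npy5r held an E-box, and Mc3r and Npy1r held none. Gfral's window had 2 CG dinucleotides and 37.7% G and C, against 14 and 57.0% for Mc3r, 10 and 51.7% for Npy1r, 15 and 61.7% for Npy5r, and medians of 7 and 52.7% over all promoters. These are descriptions of letters in the windows, not of binding.

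All 10 receptors were rare and present in some libraries but not others. Of the 120 receptor values in each kind of library (10 receptors in 12 libraries), 21.7% were 0 in the DVC inputs, 21.7% in the MBH inputs, 56.7% in the DVC IPs and 54.2% in the MBH IPs. A library held counts for 6 to 10 receptors among the DVC inputs (median 8), 4 to 9 among the MBH inputs (median 8), 2 to 7 among the DVC IPs (median 4) and 2 to 8 among the MBH IPs (median 4). Lepr, Npy1r and Npy2r had counts in each of the 24 inputs. Lepr's counts were low even so, with 1 to 30 reads in 6 of 12 DVC inputs and 8 of 12 MBH inputs.

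**Figure D1:**
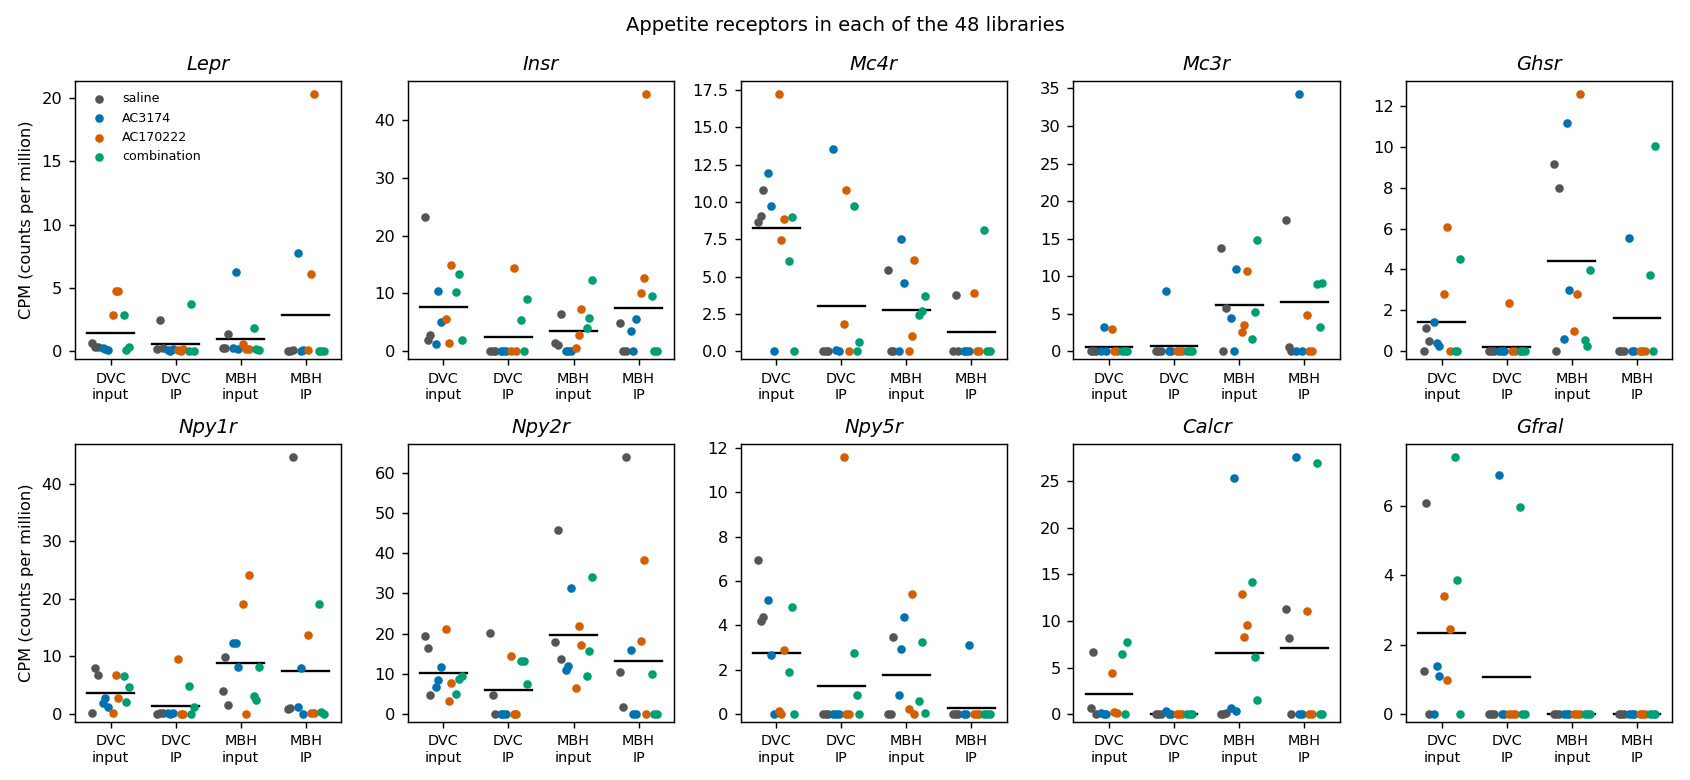
Each point is 1 library, the y axis is its TMM-scaled CPM on a linear scale that differs between receptors, colours mark treatments and black bars mark the mean of 12 libraries. Most receptors sit at or near 0 in some libraries and at several CPM in others, and the Gfral points of MBH all lie at 0.

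Per kilobase of exon (RPKM), the scale on which genes can be set against each other, Npy2r was the highest of the set in both regions' inputs, at 3.02 ± 1.72 RPKM in DVC and 5.82 ± 3.46 in MBH (mean ± SD, n = 12 each). In the DVC inputs it was followed by Mc4r at 2.94 ± 1.69, Gfral at 1.12 ± 1.17, Npy5r at 1.08 ± 0.93, Npy1r at 1.07 ± 0.80, Calcr at 0.561 ± 0.803, Insr at 0.559 ± 0.499, Ghsr at 0.321 ± 0.453, Lepr at 0.209 ± 0.259 and Mc3r at 0.198 ± 0.463. Of the 9 steps in that order, 8 were smaller than the larger SD of the neighbours, and only the step from Mc4r to Gfral, 1.82 RPKM, exceeded it. In the MBH inputs the order after Npy2r was Npy1r at 2.54 ± 2.12, Mc3r at 2.33 ± 1.99, Calcr at 1.68 ± 2.03, Ghsr at 0.998 ± 1.03, Mc4r at 0.996 ± 0.954, Npy5r at 0.691 ± 0.780, Insr at 0.254 ± 0.281, Lepr at 0.138 ± 0.249 and Gfral at 0, and all 9 steps were within the larger SD. Most steps in either order were thus within the spread between libraries, a reading that does not pair receptors by library. Library by library, Lepr was above Gfral in 12 of 12 MBH inputs and above Mc3r in 10 of 12 DVC inputs. For the other neighbours the receptor of higher mean was above in 4 to 9 of 12.

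**Figure D2:**
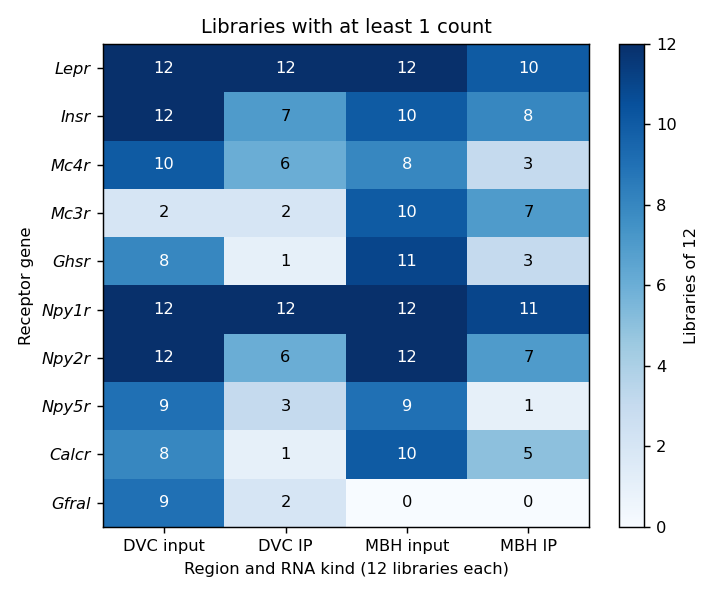
The grid gives, for each receptor (rows) and kind of library (columns), how many of 12 libraries held at least 1 count, with darker blue for more. Gfral has 9 of 12 DVC inputs and 0 of 12 MBH inputs, and Calcr and Ghsr each have 1 of 12 DVC IPs.

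The receptors were first compared between the regions' inputs, over the 4 treatments. With edgeR's quasi-likelihood test, 3 of 10 receptors were called at a Benjamini-Hochberg adjusted p under 0.05, Gfral and Insr higher in DVC and Mc3r lower, against 21.9% of all 18576 genes tested. The Insr call was lost without the AC3174 libraries. The receptors' share was near that of all genes, and the median receptor difference was -0.39 on the log2 scale against 0.10 over all genes.

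Gfral had counts in DVC and none in MBH. Its lowest, median and highest levels were 0, 1.31 and 7.42 CPM in the DVC inputs, with 3 of 12 at 0. All 12 MBH inputs, and all 12 MBH IPs, held 0 counts. The DVC mean of 2.33 ± 2.43 CPM (SD, n = 12) was at least 597-fold higher than the 0.00389 CPM that 3 counts over the 12 MBH inputs would give. Counts of 0 allow up to that floor, which covers counting error only. edgeR fitted a log2 difference of 10.07 ± 1.78 (SE; adjusted p = 0.00188), a size set partly by the fit's prior count, which is no bound. By library set (3 sets, made by pairing neighbouring column numbers of the library codes, each with 4 inputs of either region), mean Gfral was 2.92, 2.47 and 1.59 CPM in DVC and 0 in MBH. The labels name no such sets and do not state that the regions shared a preparation or run.

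Mc3r showed the opposite pattern. The MBH inputs ran from 0 through a median of 4.79 to 14.9 CPM, with 2 of 12 at 0, and 10 of 12 DVC inputs were at 0 while the other 2 held 2.98 and 3.26 CPM. The ranges overlapped. The mean was 0.520 ± 1.22 CPM in DVC and 6.10 ± 5.21 in MBH, an 11.7-fold ratio, and edgeR's log2 difference was -7.05 ± 1.83 (adjusted p = 0.0117). Within library sets, the means were 0.745, 0 and 0.815 CPM in DVC against 4.94, 5.61 and 7.76 in MBH.

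Insr was called higher in DVC, and its ranges overlapped. The DVC inputs ran from 1.22 through 5.32 to 23.2 CPM and the MBH inputs from 0 through 2.14 to 12.4 CPM (means 7.69 ± 6.86 and 3.49 ± 3.87, a 2.20-fold ratio). The fitted log2 difference of 3.11 ± 0.68 (edgeR adjusted p = 0.00238) averages the treatments on the log scale, and the 3 MBH inputs of AC3174 held 0, 0 and 1 reads. Without the AC3174 libraries of both regions, a check chosen after seeing the data, Insr was not called (log2 0.98 ± 0.71, edgeR adjusted p = 0.402), while Gfral and Mc3r were (adjusted p = 0.00765 and 0.0134). Within library sets, mean Insr was 8.04, 7.30 and 7.72 CPM in DVC and 1.48, 4.46 and 4.54 in MBH. Markers of other cells moved with region as well, summed astrocyte markers being 423 to 690 CPM in the DVC inputs and 204 to 318 in the MBH inputs, none of the astrocyte, myelin or neuronal lists having a gene at 0 throughout, and their part in this result was not tested.

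The other 7 receptors did not pass edgeR's test between inputs. Npy2r had the smallest adjusted p of these, with 3.28, 8.58 and 21.1 CPM as lowest, median and highest value in DVC and 6.52, 16.4 and 45.8 in MBH (log2 -0.93 ± 0.37, edgeR adjusted p = 0.0853), and DESeq2 called it lower in DVC (log2 -0.90, adjusted p = 0.0437). Mc4r averaged 8.24 ± 4.74 CPM in DVC, where 10 of 12 inputs held counts, and 2.79 ± 2.67 in MBH, where 8 did (log2 1.59 ± 1.20, adjusted p = 0.403). Ghsr averaged 1.42 ± 2.01 CPM in DVC and 4.42 ± 4.58 in MBH, Npy1r 3.70 ± 2.77 and 8.79 ± 7.33, and Calcr 2.19 ± 3.14 and 6.58 ± 7.94. Npy5r averaged 2.75 ± 2.38 CPM in DVC and 1.77 ± 1.99 in MBH, and Lepr 1.47 ± 1.83 and 0.972 ± 1.75. For these 6 receptors the ranges of the regions overlapped, and differences within that spread were not detectable here.

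The receptors' partners were read from lists of known ligands, coreceptors and signalling genes. Of 12 coreceptors and accessory proteins, 7 were higher in the DVC inputs and none lower (median log2 1.35), against 11.7% of all genes higher and 10.2% lower. By the rule for naming genes, the list genes of smallest adjusted p are given, and Ret, Agrp, Akt1, Gdf15 and Stat3, which fall outside it, were chosen after their values were seen. Ret, the kinase through which Gfral signals, was at 29.5 ± 16.3 CPM in DVC and 2.67 ± 3.37 in MBH (log2 3.56 ± 1.04, edgeR adjusted p = 0.0178). Ramp1, which turns Calcr into an amylin receptor, was at 36.7 ± 13.3 and 21.3 ± 7.37 CPM (log2 0.83 ± 0.22, adjusted p = 0.00912), and Atrn, attractin, which acts with agouti-type ligands, at 30.3 ± 12.1 and 14.7 ± 9.50 (adjusted p = 0.00784). Insrr, an insulin receptor relative, had 0 counts in 12 of 12 MBH inputs and averaged 4.08 ± 5.83 CPM in DVC (adjusted p = 0.00839). Of 15 ligands, 7 were tested, of which Calca and Calcb, the CGRP genes, were higher in DVC (31.3 ± 13.4 against 0.497 ± 1.19 CPM for Calca) and Npy, Pomc and Agrp lower. Npy was at 13.7 ± 4.76 CPM in DVC and 63.2 ± 19.6 in MBH, Pomc at 3.64 ± 1.19 and 73.3 ± 18.4, and Agrp at 0.937 ± 1.45 and 11.2 ± 5.30. Gdf15, the ligand of Gfral, was at 0.167 ± 0.237 CPM in DVC and 0.0894 ± 0.117 in MBH and did not pass (adjusted p = 0.245). Lep and Iapp, which encode leptin and amylin, had 0 counts in all 48 libraries.

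Downstream of leptin and insulin, 5 of 30 genes were called, a share below the 21.9% of all genes. Irs4, an insulin receptor substrate, was the most different, at 8.63 ± 6.71 CPM in the DVC inputs and 214 ± 88.4 in the MBH inputs (log2 -4.81 ± 0.43, edgeR adjusted p = 1.05e-07). Grb10 and Stat5b were also lower in DVC, and Pik3cb and Akt1 higher. Stat3, the main transcription factor of leptin signalling, was at 102 ± 33.0 CPM in DVC and 122 ± 40.2 in MBH and did not pass (adjusted p = 0.336). Of 20 genes of G protein and cAMP signalling, 3 were higher in DVC and 6 lower, against 11.7% and 10.2% of all genes. The protein kinase A subunits Prkar1a and Prkacb were among those lower (log2 -0.36 ± 0.05 and -0.79 ± 0.12). Among 30 other appetite receptors, 26 were tested. How many were called is not given here, so the genes named next are examples. Brs3, the bombesin-like receptor, had 0 counts in all DVC libraries and 10.4 ± 11.5 CPM in the MBH inputs (adjusted p = 0.000151), and Drd2 was higher in DVC at 3.04 ± 2.62 CPM against 0.748 ± 1.10 (adjusted p = 0.0078).

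On the S6-marked ribosomes the regions were compared over the 24 IP libraries. Of 9 tested receptors 6 could be fitted, and 2 of these, Mc3r and Calcr, were called by edgeR, both lower in DVC, against 5.89% of 17230 genes. Gfral did not pass the filter on low counts. Mc3r held counts in 2 of 12 DVC IPs (0.0102 and 8.05 CPM) and in 7 of 12 MBH IPs (median 1.90, highest 34.3 CPM), with edgeR's log2 at -8.70 ± 2.31 (adjusted p = 0.0365). Calcr held counts in 1 of 12 DVC IPs (0.375 CPM) and in 5 of 12 MBH IPs, which lay between 8.16 and 27.7 CPM (log2 -10.57 ± 2.76, adjusted p = 0.0386). With library set in the model neither passed (adjusted p = 0.087 for Mc3r and 0.137 for Calcr). Without the 6 libraries of fewer than 12000 genes, Calcr's difference was as large (log2 -11.48) and did not pass, and Mc3r could not be fitted. That fit left replicate 1 alone in MBH AC3174 and in MBH AC170222, so it cannot decide on a call. Leaving out 1 library at a time, Mc3r was called in 7 of 22 fits and Calcr in 6 of 21. In the third library set, Calcr, Npy2r and Mc4r were at 0 in the 4 MBH IPs. Mc4r, Ghsr and Npy5r could not be fitted in this comparison. The log2 difference was -0.40 ± 1.25 for Lepr, -4.80 ± 1.79 for Insr, -3.64 ± 1.40 for Npy1r and -3.42 ± 1.72 for Npy2r, none called by edgeR, while DESeq2 called Insr, Npy1r, Npy2r and Ghsr as well.

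IP RNA was then set against input RNA. In DVC, 7 of 10 receptors (9 of which could be fitted) were lower by edgeR in the IP than in the input and 0 higher, against 13.6% of 18465 genes lower and 6.8% higher (20.4% in either direction). The median fitted difference was -4.65 on the log2 scale over all 10 receptors, with the value of Mc3r, which could not be fitted, included, and -0.37 over all genes. Fitted sizes depend on the prior count where a group is at 0, and ratios of mean CPM were mostly smaller. Input over IP was 1.68 for Npy2r, 2.17 for Gfral, 2.17 for Npy5r, 2.70 for Npy1r, 3.21 for Insr, 7.21 for Ghsr and 70.2 for Calcr. Of the 5146 genes at 1 to 12 CPM in the DVC inputs, the range that holds 9 of the 10 receptors (all but Mc3r), 20.2% were lower. The share did not follow abundance in one direction. It was 12.4% below 1 CPM, 23.6% from 1 to 3, 18% from 3 to 12 and 8.4% from 12 to 50 CPM. Above that it was 11.6% from 50 to 200, 17.2% from 200 to 1000 and 23.9% above 1000 CPM. The band of 1 to 3 CPM holds Lepr, Ghsr, Npy5r, Calcr and Gfral. Its median gene was at 0 in 7 of 12 IPs and 2 of 12 inputs. In the range of 1 to 12 CPM the median gene was at 0 in 4 of 12 IPs and in 0 of 12 inputs. Of the 9 receptors in that range 7 were lower, against 20.2% of its genes, as a description with no test. Among the 7, Ghsr, Calcr and Gfral did not pass the filter on low counts within the DVC IPs alone. They entered this comparison through the inputs, so the direction of their calls was largely set by that filter.

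Insr went from 1.22 to 23.2 CPM in 12 of 12 DVC inputs to 0 in 5 IPs, 0.00557 to 0.0101 CPM in 4 IPs, and 5.39, 8.97 and 14.3 CPM in the remaining 3. IP was below the input of the same sample in 10 of 12 samples (edgeR log2 -5.69 ± 1.33, adjusted p = 0.00618). Input and IP of a sample number come from the same homogenate, and with the sample as a block Insr was the only receptor of the 7 that remained called (log2 -8.05 ± 2.05, adjusted p = 0.041). The blocked adjusted p was 0.0606 for Npy2r, 0.112 for Npy1r, 0.188 for Gfral, 0.189 for Ghsr, 0.192 for Npy5r and 0.192 for Calcr.

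In 5 of the other 6 receptors called, fewer IPs than inputs held any count. Calcr had counts in 8 of 12 DVC inputs (highest 7.79 CPM) and 1 of 12 IPs (0.375 CPM), with a log2 of -7.94 ± 1.84 and an edgeR adjusted p of 0.00942. Ghsr had counts in 8 inputs (highest 6.06 CPM) and 1 IP (2.37 CPM; log2 -7.52 ± 1.91, adjusted p = 0.0147), and in no sample was its IP above its input. Gfral had counts in 9 inputs and 2 IPs, which held 5.97 and 6.88 CPM (log2 -5.36 ± 1.81, adjusted p = 0.0479, and 0.0595 with no filter on low counts). Npy5r had counts in 9 inputs and 3 IPs, at 0.853, 2.75 and 11.6 CPM (log2 -5.55 ± 1.70, adjusted p = 0.0311, and 0.0539 with library set as covariate). Npy2r had counts in 12 inputs and 6 IPs, the latter at 4.65 to 20.1 CPM, a range like that of the inputs (log2 -3.61 ± 1.17, adjusted p = 0.0365). Npy1r kept counts in all 12 IPs, 9 of which held 4 to 23 reads, and its IP was below its input in 11 of 12 samples (log2 -2.89 ± 0.94, adjusted p = 0.0345).

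Lepr, Mc4r and Mc3r were not called in DVC by edgeR. Mc4r had counts in 10 inputs and 6 IPs (log2 -3.95 ± 1.48, edgeR adjusted p = 0.0691), and was called lower by DESeq2 (log2 -7.63, adjusted p = 1.56e-07) and by edgeR with library set as covariate (log2 -5.55, adjusted p = 0.0363). Lepr had counts in 12 and 12 (log2 -1.39 ± 0.85, adjusted p = 0.294), while Mc3r could not be fitted. Leaving out single samples ended several of the 7 calls. Insr kept its call in 12 of 12 fits that left out 1 sample, and Ghsr and Calcr in the 11 that could be fitted each. Npy2r and Npy5r kept theirs in 4 of 12, and Npy1r and Gfral in 2 of 12, with adjusted p up to 0.0952, 0.0958, 0.1 and 0.113. Without AC3174 replicate 3, the 1 DVC sample whose IP held fewer than 12000 genes, 4 of the 7 were called (Insr, Ghsr, Npy5r and Calcr).

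**Figure D3:**
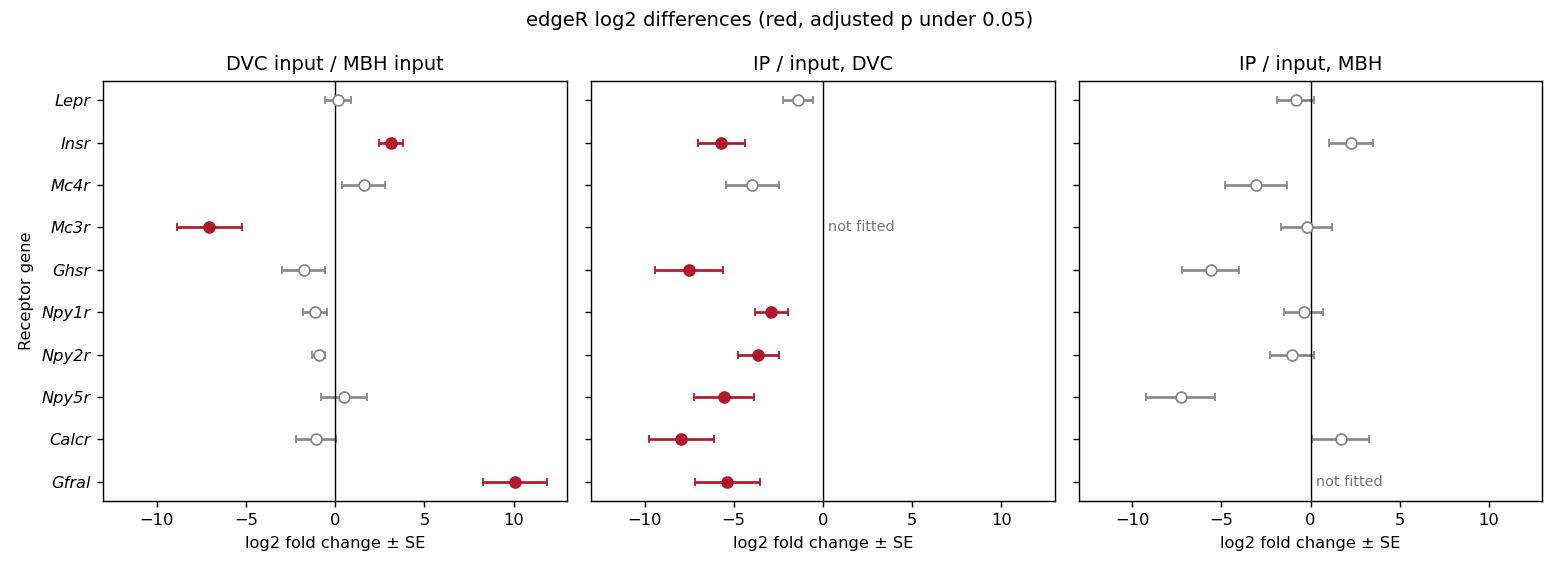
Points are edgeR log2 differences with bars of 1 SE for each receptor (rows) in 3 comparisons, red where the adjusted p was under 0.05, and "not fitted" marks values that could not be estimated or tested. In DVC, 7 of 9 fitted receptors are red and left of 0, and in MBH none is red.

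Several lists of cell markers fell in the same DVC comparison, and others did not. Of the markers of microglia 3 of 4 were lower in the IPs, of mural cells 3 of 4, of endothelium 3 of 5, of oligodendrocyte precursors 2 of 3 and of myelin 2 of 4. Snap25, 1 of the 4 neuronal markers, was higher (log2 0.87 ± 0.09, edgeR adjusted p = 1.1e-05). Calls for the other neuronal markers are not given here. Summed neuronal markers were 6683 to 7922 CPM in the DVC inputs and 9089 to 19727 in the IPs. Summed microglial markers were 23.5 to 51.1 CPM in the DVC inputs and 0 to 30.9 in the IPs, those of mural cells 19.1 to 40.2 and 0 to 68.6, of endothelium 1.82 to 32.2 and 0 to 127, and of precursors 8.24 to 65.5 and 0 to 20.6, with Cspg4 and Cdh5, markers of precursors and endothelium, at 0 in all 12 IPs. Summed astrocyte markers were 423 to 690 CPM in the inputs and 118 to 1372 in the IPs (medians 533 and 839, with 1 of 4 genes, Gfap, higher), and those of choroid plexus and meninges had medians of 122 and 174 CPM with 0 of 5 called. The part of these markers in the receptors' values was not tested. Among partners, against the 13.6% of all genes that were lower, 4 of 12 coreceptors were lower in the IPs, including Ret (29.5 to 5.81 CPM, with 6 of 12 IPs at 0, adjusted p = 0.0115) and the RAMP-binding receptor Calcrl (5.25 ± 4.15 to 2.57 ± 5.98 CPM, adjusted p = 0.00271). Of 20 G protein and cAMP genes 5 were lower, including Prkaca, the catalytic subunit of protein kinase A, at 269 ± 134 CPM in the inputs and 31.2 ± 10.3 in the IPs (adjusted p = 1.2e-05), and Gnai1, an inhibitory G protein, at 175 ± 49.8 and 26.3 ± 17.1 (adjusted p = 0.00162). Of 22 tested other appetite receptors 5 were lower, Adipor1, Tacr1, Drd2, Oprk1 and Trhr (the last outside the naming rule). Grb2 and Gsk3b were the 2 of 30 leptin and insulin signalling genes that were lower, a share under that of all genes.

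In MBH, 0 of 9 tested receptors were called between IP and input by edgeR, against 0.452% of 17461 genes (0.16% higher and 0.292% lower). At an unadjusted p under 0.05 by edgeR were 2 of the 9, against 1976 of the 17461 genes. DESeq2 called 3, and how many genes it called here is given in the last section. Npy5r had counts in 9 of 12 inputs and 1 of 12 IPs (3.13 CPM; log2 -7.29 ± 1.93, edgeR adjusted p = 0.119), and Ghsr in 11 and 3 (log2 -5.60 ± 1.60, adjusted p = 0.130). Those 2 and Mc4r (edgeR log2 -3.07 ± 1.75, adjusted p = 0.615) are the 3 that DESeq2 called, all lower in the IP. Insr averaged 3.49 ± 3.87 CPM in the inputs and 7.56 ± 12.5 in the IPs, the highest IP holding 44.5 CPM (log2 2.27 ± 1.25, adjusted p = 0.571). Calcr averaged 6.58 ± 7.94 and 7.10 ± 10.5 CPM, and Mc3r 6.10 ± 5.21 and 6.53 ± 10.3. Lepr, Npy1r and Npy2r were at log2 differences of -0.82 ± 1.04, -0.39 ± 1.11 and -1.05 ± 1.24. Without AC3174 replicate 1, Ghsr alone was called.

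The change from input to IP differed between regions for 2 of the 5 receptors that could be fitted, by edgeR's interaction term, against 4.39% of 19416 genes. The log2 change was more negative in DVC than in MBH by -7.86 ± 1.84 for Insr (adjusted p = 0.00851) and by -9.31 ± 2.37 for Calcr (adjusted p = 0.0183). With a block for sample neither passed (log2 -6.87, adjusted p = 0.431 for Insr, and log2 -2.94, adjusted p = 0.898 for Calcr). With that block the MBH change itself was negative, at log2 -0.99 ± 2.10 for Insr and -3.46 ± 3.15 for Calcr, neither called. With library set as covariate Insr passed (adjusted p = 0.0115) and Calcr did not (log2 -5.73, adjusted p = 0.25). Without the 6 IPs of few genes and the inputs of the same samples, the differences were larger (log2 -9.80 for Insr and -12.25 for Calcr). Neither passed, but that fit left replicate 1 alone in MBH AC3174 and in MBH AC170222, so it cannot decide on a call. Leaving out MBH saline replicate 1 ended both calls (adjusted p = 0.0584 for Insr and 0.0511 for Calcr), and leaving out DVC AC170222 replicate 1 ended that of Calcr (0.0559). The difference for Lepr, Npy1r and Npy2r was -0.48 ± 1.41, -2.47 ± 1.43 and -2.41 ± 1.46, none called, and the other 5 could not be fitted.

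The drugs were compared with saline, and the combination with each drug, in each region and RNA kind, 20 comparisons in all. edgeR called 0 receptors and 0 genes in each of them (0% of the genes tested), with 127 to 1427 genes at an unadjusted p under 0.05 and 158 to 1144 called by DESeq2. Each comparison tested 14766 to 17477 genes. Of 160 receptor tests 15 (9.38%) had an unadjusted p under 0.05 by edgeR, against 4.23% of all gene tests. By DESeq2, 28 of the 130 receptor tests for which it gave a p (21.5%) were under 0.05, against 6.86% of all gene tests. DESeq2 called 18 of these 130, spread over 7 receptors. The libraries of the groups compared did not overlap in 16 of the 160, 10% against 9.54% of all gene tests, a share near the background. The tests share the saline and combination libraries, so they are not independent. Library set and treatment cannot be fully told apart, since 2 of 3 saline and AC170222 libraries are in the first set and 2 of 3 AC3174 and combination libraries in the third.

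Insr in the MBH inputs gave the smallest p. The 3 saline libraries held 1.14, 1.51 and 6.53 CPM, the 3 AC3174 libraries 0, 0 and 0.0156, the 3 AC170222 libraries 0.487, 2.78 and 7.34, and the 3 combination libraries 3.97, 5.74 and 12.4. AC3174 libraries thus lay below all others, and saline and combination values overlapped. The fitted log2 was -8.64 ± 1.89 for AC3174 against saline (edgeR adjusted p = 0.449) and 9.93 ± 1.99 for the combination against AC3174 (edgeR adjusted p = 1). In the second library set, the only one to hold all 4 treatments, the values were 6.53 CPM in saline, 0 in AC3174, 7.34 in AC170222 and 3.97 in the combination. The MBH IPs of AC3174 did not share the pattern, at 0, 3.51 and 5.62 CPM, and neither did the DVC inputs, at 1.22, 5.03 and 10.4.

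Calcr in the MBH inputs was near 0 in saline and present in each treated group. Saline libraries held 0, 0 and 0.0768 CPM, AC3174 libraries 0.313, 0.626 and 25.4, AC170222 libraries 8.31, 9.54 and 12.9, and combination libraries 1.54, 6.15 and 14.2. All 9 treated libraries were above the 3 saline ones. Over all genes, saline libraries did not overlap with those of AC3174 for 10.4%, of AC170222 for 8.92% and of the combination for 18.2%. Saline replicate 2, at 0, held counts for 12853 genes, the fewest of any input. The log2 was 8.49 ± 2.37 for AC170222 (edgeR adjusted p = 0.709) and 8.04 ± 2.33 for the combination (edgeR adjusted p = 0.528). Within library sets, saline and AC170222 were at 0 and 0 against 8.31 and 12.9 CPM in the first and 0.0768 against 9.54 in the second. In the MBH IPs the saline libraries were not low, at 0, 8.16 and 11.3 CPM.

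Lepr was highest with AC170222 in the DVC inputs, at 2.87, 4.75 and 4.76 CPM, against 0.334, 0.368 and 0.685 in saline, 0.119, 0.200 and 0.280 with AC3174, and 0.126, 0.312 and 2.88 with the combination. The log2 for AC170222 against saline was 3.17 ± 1.27 (edgeR adjusted p = 1). Within library sets, saline and AC170222 were at 0.334 and 0.685 against 2.87 and 4.75 CPM in the first and 0.368 against 4.76 in the second. In the DVC IPs the order was the opposite, with 0.0161, 0.139 and 0.144 CPM for AC170222 and 0.175, 0.223 and 2.50 for saline. In the MBH IPs, Lepr was at 0.0938, 6.07 and 20.3 CPM with AC170222 and 0.0324, 0.0443 and 0.0660 with saline, while the other groups were at 0, 0.0673 and 7.72 (AC3174) and 0, 0.0172 and 0.0624 (combination). The MBH IPs at 6.07 and 20.3 CPM (AC170222) held counts for fewer than 12000 genes. So did those at 0.0660 CPM (saline) and at 0 and 0.0673 CPM (AC3174). edgeR called none of these differences, and DESeq2 called Lepr between the combination and AC170222 in the MBH IPs.

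**Figure D4:**
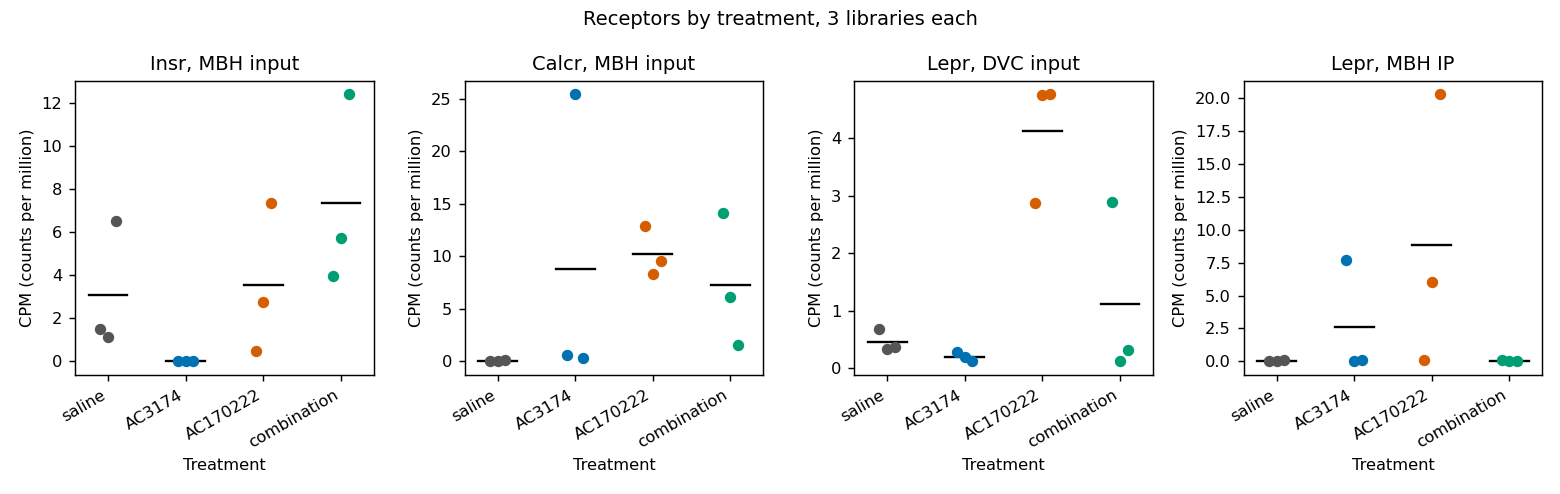
Points are single libraries, 3 for each treatment (x axis), at their CPM (y axis, linear, different for each panel), and bars are means. The 3 AC3174 values of Insr and the 3 saline values of Calcr in MBH inputs lie at or near 0, and no difference shown passed the edgeR test.

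Npy5r and Npy2r also had groups that did not overlap. Npy5r was 4.18, 4.38 and 6.94 CPM in the saline DVC inputs and 0, 0.157 and 2.87 with AC170222, and Npy2r in the DVC IPs was 0 in the 3 AC3174 libraries and 7.36, 13.1 and 13.2 CPM in the 3 combination libraries (log2 13.47 ± 5.09, edgeR adjusted p = 1). In the DVC IPs, Mc4r was 0 in the 3 saline libraries and had counts in 2 of 3 libraries of each treated group, up to 13.6 CPM. Gfral in the DVC inputs was 0, 1.24 and 6.08 CPM with saline, 0, 1.10 and 1.38 with AC3174, 0.971, 2.46 and 3.40 with AC170222 and 0, 3.86 and 7.42 with the combination, with all groups overlapping. Mc4r in the DVC inputs overlapped across groups too, with 0 to 17.2 CPM. Ghsr, Npy1r and Mc3r had no edgeR comparison of treatments at an unadjusted p under 0.05, and DESeq2 called Ghsr in 3 comparisons of MBH IPs.

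Across the 24 inputs the receptors did not rise and fall together. Over the 45 pairs, Pearson's r of log2(CPM + 1) ran from -0.47 (Insr and Npy1r) to 0.48 (Mc3r and Npy2r), and the neighbours Npy1r and Npy5r had r = -0.36. Among genes of at least 5 CPM, those most like Gfral were Calcb (r = 0.80), Tubb3 (0.75) and Fkbp1b (0.75), and those most like Mc3r were Cdk18, Ncald and Foxb1 (0.79 each). Npy2r was closest to Rhof (r = 0.79), Mc4r to Slc5a3 (0.78), Insr to 4933404O12Rik (0.77), Npy5r to Chdh (0.73), Ghsr to Arl10 (0.71) and Calcr to Mrpl24 (0.69), while Lepr and Npy1r reached 0.63 with Sms-ps and Mcee. These values are descriptions over libraries that share region, treatment and preparation, and no receptor had a gene at r of 0.8 or above when unrounded.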

How the data were processed

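The authors' deposited table holds raw counts of reads per Ensembl gene for the 48 libraries, made from SMART-Seq v4 cDNA and Nextera XT libraries per the labels' protocols. TopHat2 2.0.11, HTSeq 0.6.1p1 and GRCm38 are named in the submitters' processing notes; the strand setting of the counting is not given in the sources used here. There are no molecular identifiers, so floors cover counting error only. Of 38293 gene rows, 36345 matched a symbol.

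RPKM values divide CPM by the summed exon length of a gene in kilobases. Counts were scaled by TMM and tested with edgeR 4.0.16 (R 4.3.3), quasi-likelihood F test, default expression filter by group, Benjamini-Hochberg adjustment over all genes tested and a threshold of 0.05. SE is the absolute log2 difference divided by the root of F. Fitted log2 values with a group at 0 depend on the prior count. DESeq2 1.42.0, RLE scaling, no filter, a replicate block, library set as covariate, and leaving out libraries were the alternatives. The fits were tested on simulated counts.

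Input and IP of a sample come from 1 homogenate per the labels' protocols. Their deviations from the group means had a median correlation of -0.0253 (DVC) and -0.0573 (MBH), and 0 of 12 samples of a region exceeded 0.1. No 2 replicates agreed within sampling noise (lowest chi-square per degree of freedom 130.8).

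The rule for naming genes takes the 10 receptors, up to 4 called genes of smallest adjusted p per list, and the 3 genes most correlated with a receptor. The members and lists were chosen with earlier results of these data known.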

Additional observations from a re-analysis of the deposited data

Results flagged for a closer look

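The change from input to IP differed between the regions for 2 receptors by edgeR's interaction term. For Insr the difference of DVC minus MBH was -7.86 on the log2 scale: mean Insr was 7.69 CPM in DVC inputs and 2.39 in DVC IPs, and 3.49 and 7.56 CPM in MBH. For Calcr it was -9.31: mean Calcr was 2.19 CPM in DVC inputs and 0.0312 in DVC IPs, and 6.58 and 7.10 CPM in MBH. With a block for sample neither difference passed (edgeR adjusted p = 0.431 for Insr and 0.898 for Calcr). With library set as covariate Insr passed (adjusted p = 0.0115) and Calcr did not (log2 -5.73, adjusted p = 0.25). Of the MBH IPs, 4 of 12 were at 0 for Insr and 7 of 12 for Calcr, and 5 of the 12 held counts for fewer than 12000 genes. Without the IPs of few genes and the inputs of the same samples, the differences were larger (log2 -9.80 for Insr and -12.25 for Calcr). They did not pass, but that fit left replicate 1 alone in MBH AC3174 and in MBH AC170222, so it cannot decide on a call.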

How the results depend on the processing

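In the region comparison of inputs, Gfral, Mc3r and Insr kept direction and call under RLE scaling, no filter, library set as covariate, DESeq2 (which also called Npy2r) and when any 1 library was left out. Without the AC3174 libraries, an alternative chosen after seeing the data, Gfral and Mc3r were called and Insr was not (log2 0.98, adjusted p = 0.402). The sample numbers are shared by the regions without a stated link, and with a replicate block 1 receptor was called there (Insr), Gfral and Mc3r losing their calls (adjusted p = 0.0801 and 0.0942), while the block gave 0 receptors and 372 genes for the IPs. With the replicate block, IP against input gave 1 receptor and 1401 genes in DVC and 3 genes in MBH, and the difference between regions gave 0 receptors and 200 genes. With library set as covariate, 0 receptors were called between the IPs, 1 in the difference between regions, and 48 genes in IP against input of MBH; in the MBH IPs, 3 genes were called for AC3174 against saline, 1 for the combination against saline and 1 for the combination against AC170222. Without the low-complexity libraries, 0 receptors were called between the IPs, 4 in IP against input of DVC and 0 in the difference, with 27 genes in IP against input of MBH and 2 for the combination against saline in DVC IPs. With no filter, IP against input of MBH gave 44 genes.

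DESeq2 called 6 receptors and 3230 genes between the IPs, 6091 genes in IP against input of DVC, 3 receptors and 1846 genes in that of MBH, and 4 receptors and 3270 genes in the difference. In the order AC3174, AC170222 and combination against saline, then combination against AC3174 and AC170222, DESeq2 called 229, 217, 272, 250 and 265 genes in DVC inputs, 1144, 906, 935, 442 and 387 in DVC IPs, 740, 573, 571, 303 and 223 in MBH inputs, and 368, 290, 158, 344 and 281 in MBH IPs. In the same order it called 2, 2, 3, 2 and 0 receptors in DVC IPs, 2, 1, 1, 1 and 0 in MBH inputs, and 1, 0, 1, 0 and 2 in MBH IPs. Leaving out 1 library or sample at a time, receptors called ran from 3 to 4 (inputs), 0 to 2 (IPs), 3 to 6 (IP against input, DVC), 0 to 1 (MBH) and 0 to 2 (difference), and genes called from 3424 to 4715, 600 to 1098, 2759 to 4213, 4 to 587 and 486 to 1075. In the treatment comparisons these fits called 0 receptors and from 0 to at most 7 genes (0 to 7, 0 to 6 and 0 to 7 against saline in MBH inputs, 0 to 2 or fewer elsewhere, 0 to 1 in most).

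RLE scaling changed no receptor's call in the 5 comparisons of region and RNA kind. It shifted all log2 values by -0.18 between the IPs, -0.11 and 0.12 in IP against input of DVC and MBH, and -0.37 in the difference, and moved the genes called from 28 higher and 51 lower to 40 and 44 in MBH, and from 453 and 399 to 153 and 491 in the difference. Lepr had 1 to 30 counts in 6 to 9 of 12 libraries of each kind, the deeper DVC IPs included.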
